A study of Mus musculus with 8 samples.

Results

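The genes described here are the vomeronasal type 1 receptor genes of the mouse, taken as every protein-coding gene of the mm9 annotation (GENCODE vM1) whose symbol begins with Vmn1r. The rule found 203 gene entries of 22367 protein-coding genes. They carry 202 distinct symbols, because Vmn1r63 has a pair of overlapping entries. The annotation also holds 54 Vmn1r pseudogenes, which were not counted as members, and the entries V1ra8, V1rd19 and V1rh19, which keep an older name and fall outside the rule.

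The series is a LaminB1-DamID profile of 3T3-L1, a single established mouse preadipocyte line, with 1 library of free Dam and 1 of LaminB1-Dam for each condition and no replicate. The preadipocytes were undifferentiated, and the titles of their libraries name no shRNA. The adipocytes were at day 9 after induction with insulin, dexamethasone, IBMX and rosiglitazone. Per the labels they carried a non-target shRNA. The paper gives both descriptions. It names non-target shRNAs as the control of its microarrays, run on samples parallel to the DamID. Elsewhere it names an empty shRNA vector as the knockdown's control in differentiated cells. The Tmem120a knockdown (the single knockdown) and the Tmem120a/b knockdown (the double knockdown) were day 9 adipocytes, induced in the same way, that carried shRNA against Tmem120a or against both Tmem120a and Tmem120b, which encode nuclear envelope transmembrane proteins. All cells also carried the lentivirus encoding Dam or LaminB1-Dam. The deposited data used here are lists of positions. There is 1 list of lamina associated domains (LADs, stretches of DNA near the nuclear envelope) for each condition. There is also 1 list of regions released from LADs between preadipocytes and adipocytes and 1 list of regions recruited to them. The adipocyte list serves as the control of both knockdowns and as 1 side of the released and recruited regions, so these comparisons share it. With 1 profile per condition no difference could be tested, and every value below describes these profiles alone. The lists hold no expression values, so the labelled cell types were not checked against marker genes. A locus at the envelope in some of the cells and a locus held there weakly in all of them cannot be told apart in such lists.

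Vomeronasal type 1 receptors are G protein coupled receptors of sensory neurons in the vomeronasal organ, where they detect pheromones and related small molecules. Each neuron is thought to express a single receptor gene, and its signal passes through the G protein subunit Gnai2 and the cation channel Trpc2. The genes are short, mostly with a single coding exon, and lie in arrays of close relatives made by repeated duplication. LADs are typically poor in genes, rich in A and T, and low in transcription.

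The coding sequences show how alike these genes can be. The 4 sequences given first belong to members that lay in a LAD in adipocytes and outside LADs in preadipocytes. Each run is the first 90 bases of the coding sequence, 5′ to 3′ on the strand of the gene in mm9, and capitals mark bases that differ from Vmn1r63.

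Vmn1r63 (chr7:5755144-5755233, minus strand): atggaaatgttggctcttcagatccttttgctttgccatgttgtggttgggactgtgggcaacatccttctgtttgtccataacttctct
Vmn1r58 (chr7:5362742-5362831, minus strand): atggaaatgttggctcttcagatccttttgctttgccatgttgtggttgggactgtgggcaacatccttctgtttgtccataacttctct
Vmn1r62 (chr7:5626924-5627013, plus strand): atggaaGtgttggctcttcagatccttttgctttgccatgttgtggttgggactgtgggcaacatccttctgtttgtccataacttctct
Vmn1r61 (chr7:5562826-5562915, minus strand): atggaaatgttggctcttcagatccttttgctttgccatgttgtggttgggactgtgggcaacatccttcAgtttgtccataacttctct

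Over these 90 bases Vmn1r58 had 0 differences from Vmn1r63, and Vmn1r62 and Vmn1r61 had 1 each. Each of the 4 runs holds 1 GATC, the sequence that Dam methylates. A second set comes from members that lay outside LADs in the double knockdown alone, Vmn1r2 and Vmn1r3 on chromosome 4, shown with their near copy Vmn1r79 of chromosome 7. Here capitals mark bases that differ from Vmn1r3.

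Vmn1r3 (chr4:3112363-3112452, minus strand): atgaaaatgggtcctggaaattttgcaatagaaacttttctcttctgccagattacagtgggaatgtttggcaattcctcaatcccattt
Vmn1r2 (chr4:3099230-3099319, plus strand): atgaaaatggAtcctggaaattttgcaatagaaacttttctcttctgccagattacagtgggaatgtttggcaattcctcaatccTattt
Vmn1r79 (chr7:12761542-12761631, plus strand): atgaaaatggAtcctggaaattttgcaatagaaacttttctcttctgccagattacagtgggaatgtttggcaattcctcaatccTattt

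Vmn1r2 and Vmn1r79 each differed from Vmn1r3 at 2 of the 90 bases, and at the same places. Both hold 1 GATC in this stretch where Vmn1r3 holds 0. The last pair, Vmn1r95 and Vmn1r116 from the largest array, had 0 differences.

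Vmn1r95 (chr7:20779059-20779148, plus strand): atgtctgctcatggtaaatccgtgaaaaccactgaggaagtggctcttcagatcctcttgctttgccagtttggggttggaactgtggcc
Vmn1r116 (chr7:21657275-21657364, plus strand): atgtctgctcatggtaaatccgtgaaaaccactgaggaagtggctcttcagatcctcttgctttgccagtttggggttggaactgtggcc

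This likeness bears on the positions of members with near copies, since a short read from a duplicated stretch fits more than one place. It was measured as the share of 32-base words in the exons of a gene that occur once among the 21 chromosomes of the assembly, on either strand. The median over the 203 members was 61.4%. It was 94.4% to 100% in the members from Vmn1r224 to Vmn1r237. In the array of Vmn1r91 to Vmn1r183 the median was 3.61%, and 39 of its 64 members were under 10%, against 2 of the other 139 members. Aligned with each other over at least 500 bases, 88 members had another member at 95% identity or more and 38 had one at 99% or more, the pair of Vmn1r63 entries included, and for 194 of the 203 the closest relative lay in the same array. Read length and the handling of reads with several matches are not given in the sources used here.

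**Figure D1:**
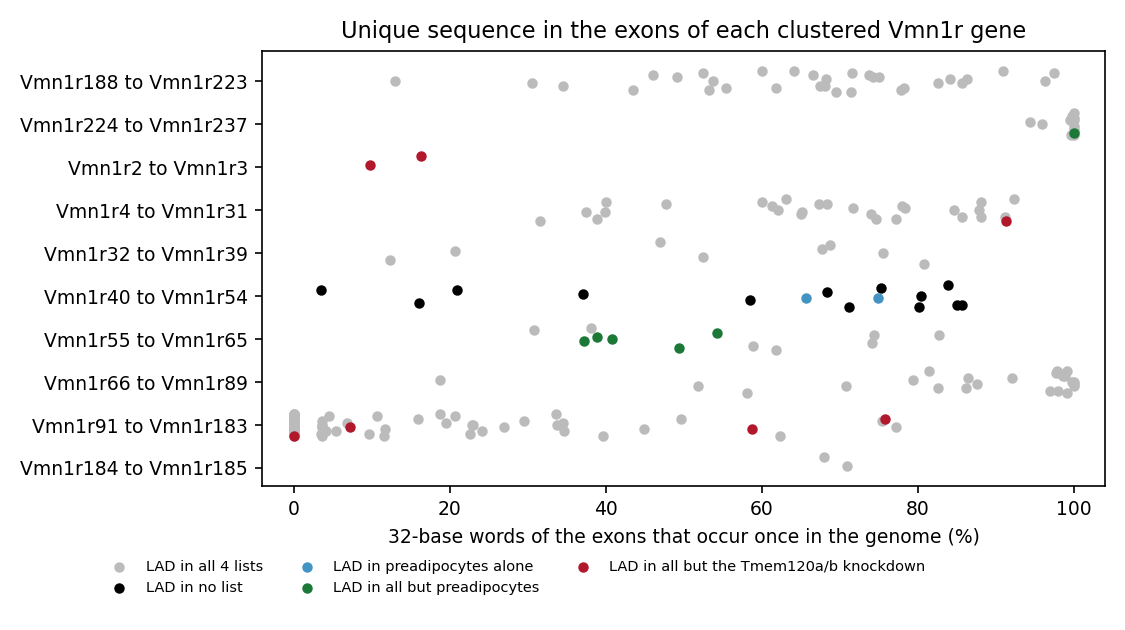
Each point is a Vmn1r gene of 1 of the 10 clusters (rows), placed by the percentage of 32-base words in its exons that occur once in the genome, and coloured by the lists in which it met a LAD; vertical scatter within a row has no meaning. The Vmn1r91 to Vmn1r183 row is crowded at the left, with a median of 3.61%, while the Vmn1r224 to Vmn1r237 row lies between 94.4% and 100%.

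Most Vmn1r genes lay in LADs in every condition. In preadipocytes 183 of the 203 met a LAD, by any overlap with the gene body, against 26.2% of all protein-coding genes. In adipocytes 187 did (background 23.3%), in the single knockdown 187 (27.5%) and in the double knockdown 180 (29.5%). The members' shares were 90.1%, 92.1%, 92.1% and 88.7%. A total of 174 members, 85.7%, met a LAD in all 4 lists, where 19.3% of all genes did, and 14 members, 6.90%, met one in no list, where 63.7% of all genes did. The genes are short, with a median of 930 bp and 194 of them at 3 kb or less. Those lying partly in a LAD numbered 3, 1, 2 and 2 in the order preadipocyte, adipocyte, single and double knockdown, or 1.48%, 0.493%, 0.985% and 0.985%, against 6.17%, 3.94%, 8.52% and 10.1% of all protein-coding genes. The part of gene length in this was not tested.

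Other chemosensory receptor families gave a similar picture. Among the 125 genes of the type 2 receptors (Vmn2r), which serve other neurons of the same organ, 124 met a LAD in preadipocytes, 125 in adipocytes and 124 in each knockdown. Among the 240 olfactory receptor genes (Olfr) of chromosome 7 the counts were 219, 229, 219 and 205, and among the 286 of chromosome 2 they were 285, 286, 284 and 286. Of the 54 Vmn1r pseudogenes, 45, 45, 43 and 43 met a LAD in the same order of lists. Restricting the Vmn1r genes to the 115 in whose exons at least 50% of the words were unique gave shares of 89.6%, 89.6%, 89.6% and 87.0%.

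**Figure D2:**
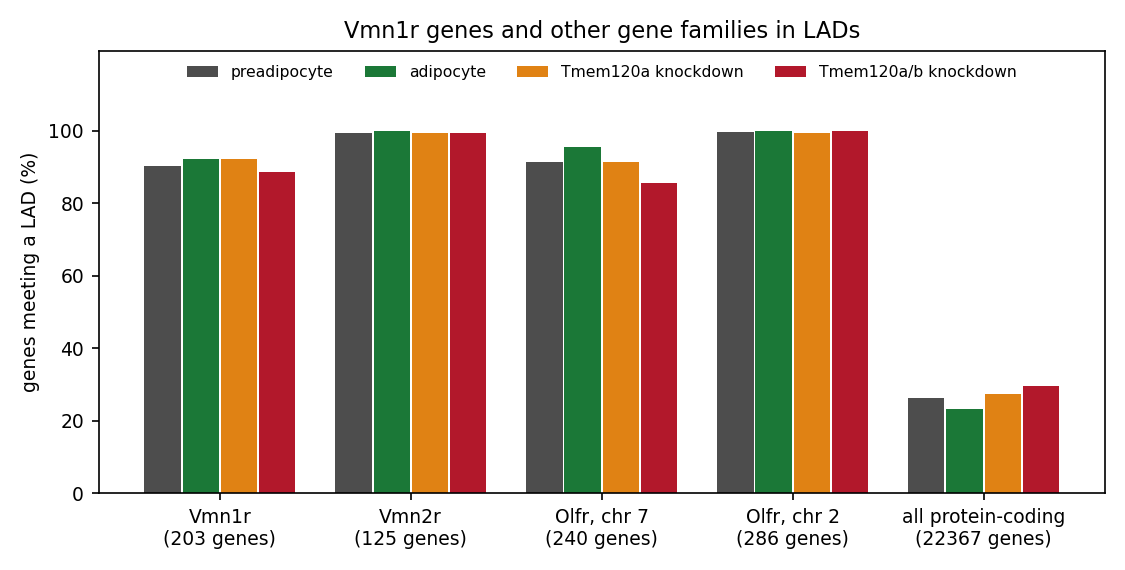
Percentage of genes meeting a LAD (vertical axis) in each of the 4 LAD lists, for Vmn1r genes, Vmn2r genes, olfactory receptor genes of chromosomes 7 and 2, and all protein-coding genes; 1 profile per bar, so no error bar is drawn. Vmn1r genes stand between 88.7% and 92.1% in every list, and all protein-coding genes between 23.3% and 29.5%.

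Of the genes listed for vomeronasal signalling and neuron identity, only Ano2 met a LAD. With the related formyl peptide receptors the list had 16 genes. Of these, 15 were found in the annotation and 6 met a LAD, the same 6 in each list, where 23.3% to 29.5% of all genes did. These were the formyl peptide receptor genes Fpr3, Fpr-rs3, Fpr-rs4, Fpr-rs6 and Fpr-rs7, a family with receptors in vomeronasal neurons, and Ano2, a calcium activated chloride channel. The 5 receptor genes lie on chromosome 17 and met a single preadipocyte LAD of 3028 kb, which also held Vmn1r224, so they are not separate cases. Ano2 was also the only one to meet a released and a recruited region, over 9.61% and 14.3% of its body. Gnai2, Gnao1 and Gng8 (G protein subunits), Trpc2 and Ano1 (channels), Omp (olfactory marker protein) and the transcription factor genes Meis2, Bcl11b and Lhx2 met no LAD in any list.

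Members lay on 7 chromosomes, with 103 on chromosome 7, 51 on chromosome 6, 32 on chromosome 13, 13 on chromosome 17, 2 on chromosome 4 and 1 each on chromosomes 1 and 18. Joined wherever neighbours were at most 1 Mb apart, 200 of them formed 10 clusters spanning 12.7 Mb, and 3 stood alone. LADs covered 86.0% of the cluster length in preadipocytes, 90.0% in adipocytes, 87.7% in the single knockdown and 86.6% in the double knockdown. These shares lie close together. The number of LADs that made them up did not: 30 LADs met the clusters in preadipocytes, 24 in adipocytes, 33 in the single knockdown and 45 in the double knockdown. With gaps under 50 kb closed these numbers were 22, 15, 15 and 15, and with only LADs of at least 100 kb kept they were 19, 18, 24 and 30. The 4 lists as wholes held 3914, 2542, 5723 and 6971 LADs, in the same order.

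**Figure D3:**
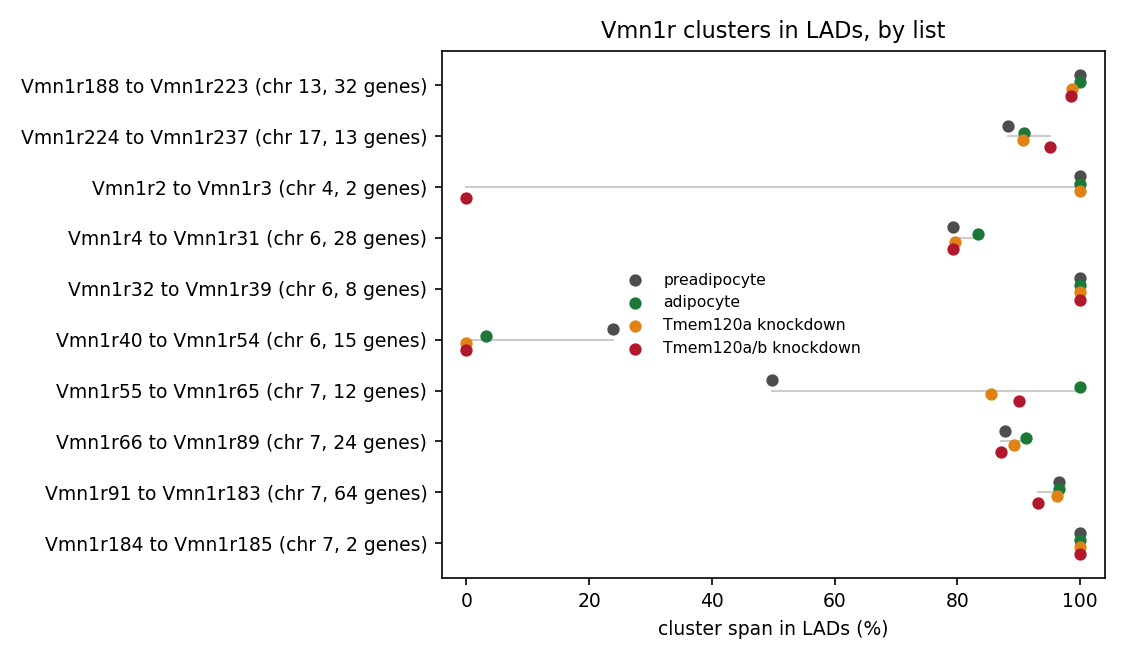
Percentage of each Vmn1r cluster's span that lay in LADs (horizontal axis), for the 4 lists; grey lines join the lowest and highest of the 4 values, and points are offset vertically to be visible. Most clusters stay above 79%, while Vmn1r40 to Vmn1r54 lies between 0% and 23.9%, Vmn1r55 to Vmn1r65 between 49.7% and 100%, and Vmn1r2 to Vmn1r3 at 100% in all lists but the Tmem120a/b knockdown.

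Base composition was similar among the larger clusters. The clusters on chromosomes 6, 7, 13 and 17 had 39.1% to 40.8% G and C, against 41.8% over the genome, and 2.67 to 3.36 GATC sites per kb, against 2.51. The short Vmn1r2 to Vmn1r3 cluster was richer in G and C (49.4%) and poorer in GATC (1.43 per kb). Within the clusters 176 distinct LAD borders occurred in any list, and 172 of them fell on a GATC. The other 4 were the edges of 2 runs of unknown bases (N) of 50 kb each in the largest array, at chr7:21364479-21414479 and chr7:22405019-22455019. These runs appear as gaps between LADs in every list and hold no sequence that could be measured. In the single knockdown the second of them was part of a gap of 51.4 kb.

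The array on chromosome 13 lay almost wholly in LADs in every list. Its 32 members, from Vmn1r188 (chr13:22179747-22180673) to Vmn1r223 (chr13:23341107-23342192), all met a LAD in all 4 lists. A single LAD of 1214 kb in preadipocytes and a single one of 1224 kb in adipocytes held the entire array. In the single knockdown 3 LADs covered 98.7% of its span, and in the double knockdown 4 LADs covered 98.4%. The breaks were 4.51 to 8.89 kb long and held no gene, so no member left a LAD.

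On chromosome 6, the 28 members from Vmn1r4 (chr6:56906460-56907493) to Vmn1r31 (chr6:58421961-58422872) had 79.3%, 83.4%, 79.6% and 79.2% of their span in LADs, in the order preadipocytes, adipocytes, single knockdown and double knockdown. What lay outside was mainly the stretch of Ppm1k, Herc6, Pigy, Lancl2 and Vopp1, genes of other families that interrupt the array. In preadipocytes this was 1 gap of 314 kb. The 28 members all met a LAD in the first 3 of these lists and 27 in the double knockdown. The exception, Vmn1r21 (chr6:57793458-57794487), lies at the edge of that interruption, and the gap of 60.5 kb that held it also held part of Vopp1. In the other lists Vmn1r21 was near a border as well, 7.60 kb inside it in preadipocytes, 27.7 kb in adipocytes and 2.49 kb in the single knockdown. Its exons are mostly unique (91.3% of words). The 8 members from Vmn1r32 (chr6:66502177-66509702) to Vmn1r39 (chr6:66754409-66755326) lay in a single LAD over the whole of their span in each list.

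The third array of chromosome 6 stood apart from the rest. Of the 15 members from Vmn1r40 (chr6:89664197-89665129) to Vmn1r54 (chr6:90219100-90220047), 13 met no LAD in any list. They were Vmn1r40, Vmn1r41, Vmn1r43 to Vmn1r52 and Vmn1r54, and with Vmn1r1 they make up all 14 members outside LADs throughout. LADs covered 23.9% of the 556 kb of the array in preadipocytes, in 4 pieces, 3.18% in adipocytes, in 1 piece of 17.7 kb, and 0% in both knockdowns. The 13 other genes within 500 kb on either side met no LAD in any list. The receptor gene V1ra8, inside the array under its older name, met a LAD in preadipocytes and adipocytes and in neither knockdown. The array had 40.8% G and C, 3.16 GATC sites per kb and 61.3% of unique words, where the other clusters of chromosomes 6, 7, 13 and 17 had 39.1% to 40.8%, 2.67 to 3.36 and 12.3% to 69.3%.

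Vmn1r53 (chr6:90173311-90174432, minus strand) was the only member to meet a released region, 0.493% of the family against 5.76% of all genes. The bases of these shares differ, since 183 of the 203 members met a preadipocyte LAD, against 5865 of the 22367 genes. More of the family could therefore be released. All of the body of Vmn1r53 lay in a LAD of 67.7 kb in preadipocytes and none of it in the adipocyte, single knockdown or double knockdown list. The released region ran over 48.1 kb, chr6:90169719-90217849 as deposited. Its ends are shown here on the plus strand of mm9, with the GATC at which each border falls in capitals.

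Start of the released region (chr6:90169702-90169735): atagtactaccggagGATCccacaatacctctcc
End of the released region (chr6:90217832-90217865): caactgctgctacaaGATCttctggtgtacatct

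A second member of the array, Vmn1r42, met a LAD in preadipocytes over 10.7% of its body and in no other list. Together Vmn1r42 and Vmn1r53 were the 2 members in a LAD in preadipocytes and not in adipocytes, 0.985% of the family where 4.81% of all genes met that description. Of those that met a preadipocyte LAD, this was 2 of 183 members, against 1076 of 5865 genes. Counting only members with at least 50% of the body in a LAD left Vmn1r53. With only LADs of at least 100 kb kept, 5 other members met the description and 0 of these 2 did. The number of members meeting a released region went from 1 to 2 when the regions were cut directly from the LAD lists.

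**Figure D4:**
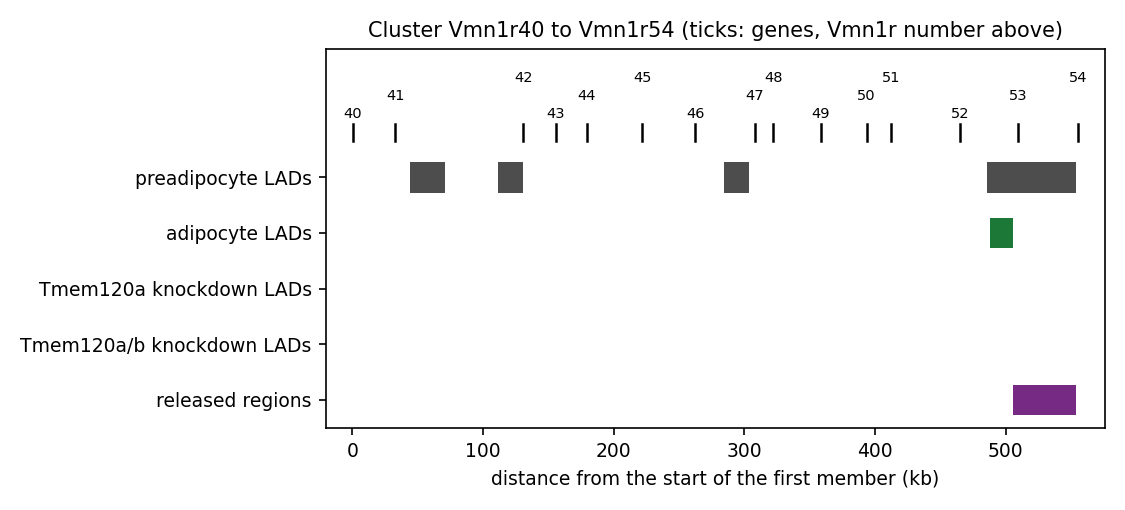
LADs of the 4 lists and released regions (bars) along the Vmn1r40 to Vmn1r54 array, in kb from the start of Vmn1r40; ticks mark the genes, with their Vmn1r numbers. The preadipocyte row holds 4 short LADs, the adipocyte row 1 of 17.7 kb, and both knockdown rows are empty.

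The array at the start of chromosome 7 changed most between preadipocytes and adipocytes. It has 12 entries from Vmn1r55 (chr7:5097820-5099103) to Vmn1r65 (chr7:5959352-5962612) over 865 kb. In preadipocytes 6 separate LADs covered 49.7% of it and met 7 of the 12 entries. In adipocytes 1 LAD of 982 kb covered all of it, with all 12 entries inside. The deposited recruited regions covered 50.3% of its span in 5 regions, which are the preadipocyte gaps.

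Vmn1r58 (chr7:5360489-5364747) lay in the longest of these regions, 185 kb at chr7:5219478-5404083, with Nlrp2 and Gm5065. Vmn1r61 (chr7:5562013-5562915) and Vmn1r62 (chr7:5626229-5627985) shared a region of 87.1 kb. Both entries of Vmn1r63 (chr7:5753947-5757047 and chr7:5754331-5755233) lay in one of 92.1 kb. Each of these 5 entries lay wholly outside LADs (0% of the body) in preadipocytes and wholly inside (100%) in adipocytes and both knockdowns. Vmn1r64 (chr7:5835182-5836144) sat on a border, 8.62% of it being covered by a preadipocyte LAD and 100% in the other lists, and its region was only 11.7 kb long. The fifth region, of 59.2 kb, held the type 2 receptor gene Vmn2r28 and no member.

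The ends of the region of Vmn1r58 are given on the plus strand of mm9, again with the GATC of each border in capitals.

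Start of the Vmn1r58 region (chr7:5219461-5219494): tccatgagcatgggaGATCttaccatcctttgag
End of the Vmn1r58 region (chr7:5404066-5404099): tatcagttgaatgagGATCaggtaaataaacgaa

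In the knockdowns the array was mostly in LADs, yet in several pieces. The single knockdown had 85.5% of the span in 4 LADs and the double knockdown 90.0% in 5. Of the region of Vmn1r58, 58.1% lay in a LAD in the single knockdown and 83.8% in the double knockdown. The part outside in the single knockdown was a gap of 77.3 kb with Nlrp2 and Gm5065 and not Vmn1r58. The region of Vmn1r61 and Vmn1r62 was covered over 90.3% and 94.0%, and those of Vmn1r63 and Vmn1r64 over 100% in both. At the far end Vmn1r65 was cut by a LAD border in the single knockdown, with 26.0% of its body inside, against 100% in the other lists. All 12 entries therefore met a LAD in both knockdowns, as in adipocytes.

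**Figure D5:**
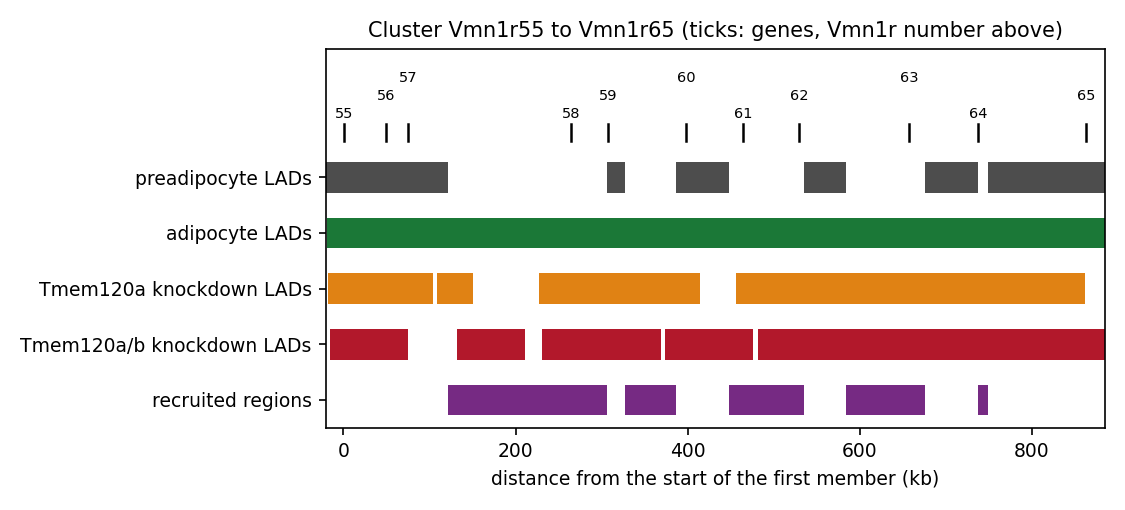
LADs of the 4 lists and recruited regions (bars) along the Vmn1r55 to Vmn1r65 array, in kb from the start of Vmn1r55; ticks mark the genes, with their Vmn1r numbers. Preadipocytes show 6 LADs, adipocytes 1 unbroken LAD, and the recruited regions fill the preadipocyte gaps that hold Vmn1r58, Vmn1r61, Vmn1r62, Vmn1r63 and part of Vmn1r64.

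The members of this array were close copies, with a median identity of 95.7% to the nearest relative. The unique share of exon words was 39.0% for Vmn1r58, 40.8% for Vmn1r61, 49.4% for Vmn1r62, and 54.3% and 37.3% for the entries of Vmn1r63. Over the preadipocyte gaps that held them it was 60.0%, 49.4% and 51.1%. The part of this likeness in the result was not tested. RefSeq promoters, 250 bases before to 50 after the start on GRCm38.p6, were matched for 177 members, of which 83 (46.9%) hold a GATC, against 48.0% of all 32851 promoters of 300 bases in that table. The motif reads alike on both strands. The promoters of Vmn1r58 and Vmn1r63 are shown because both genes lay in recruited regions and their exons were 96.5% identical over 897 aligned bases. The first holds 0 GATC and the second 1, in capitals. Those of Vmn1r61, Vmn1r62 and Vmn1r112, also matched, hold 3, 1 and 0.

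Vmn1r58 (GRCm38.p6, chr7:5413096-5413395, minus strand): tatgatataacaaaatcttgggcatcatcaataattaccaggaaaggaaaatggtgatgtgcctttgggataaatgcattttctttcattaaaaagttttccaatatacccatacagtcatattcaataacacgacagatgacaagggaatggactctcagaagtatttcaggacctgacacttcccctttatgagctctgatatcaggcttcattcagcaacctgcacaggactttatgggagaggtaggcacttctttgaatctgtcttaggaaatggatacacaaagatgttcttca
Vmn1r63 (GRCm38.p6, chr7:5805396-5805695, minus strand): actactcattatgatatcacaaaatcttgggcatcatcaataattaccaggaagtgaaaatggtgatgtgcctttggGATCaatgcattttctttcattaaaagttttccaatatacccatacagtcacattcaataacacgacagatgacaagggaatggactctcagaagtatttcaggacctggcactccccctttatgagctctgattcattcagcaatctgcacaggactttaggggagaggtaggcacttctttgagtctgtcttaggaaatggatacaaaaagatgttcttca

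The remaining clusters of chromosome 7 stayed in LADs with few exceptions. The 24 members from Vmn1r66 (chr7:10859177-10860700) to Vmn1r89 (chr7:13804688-13805638) all met a LAD in every list, with 87.7%, 91.2%, 89.2% and 87.2% of a span of 2946 kb covered. Its main interruption was a stretch of 14 genes, among them the zinc finger genes Zfp329, Zfp110, Zfp128, Zfp324 and Zfp446, and Trim28, a corepressor gene. This gap measured 264, 259 and 257 kb in the first 3 lists, and the double knockdown split it. The pieces were 4, 2, 6 and 11 in number, and no gap held a member. Vmn1r184 and Vmn1r185 lay in a LAD over their whole span in each list.

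The 64 members from Vmn1r91 (chr7:20686507-20687430) to Vmn1r183 (chr7:24839793-24840710) form the largest array, of 4154 kb. All 64 met a LAD in preadipocytes, adipocytes and the single knockdown, and 60 in the double knockdown. The share of the span in LADs was 96.5%, 96.6%, 96.2% and 93.1%, in 8, 10, 10 and 15 pieces. Only 12.3% of the 32-base words of this span are unique, so placement within it is uncertain for most members, though Vmn1r178 to Vmn1r181 had 62.3% to 77.3% of unique exon words. Without these 64 members the shares of the family in LADs were 85.6%, 88.5%, 88.5% and 86.3%.

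Vmn1r112 is annotated over 201 kb (chr7:21356583-21557259), a span that takes in one of the runs of unknown bases. Its body was covered over 58.4% in preadipocytes, 75.1% in adipocytes, 75.1% in the single knockdown and 67.3% in the double knockdown, and the gap of 50 kb was common to all lists. It met recruited regions over 12.9% of its body. These were 15.7 kb and 10.2 kb long and had 0% and 0.276% of unique words. With Vmn1r58, Vmn1r61, Vmn1r62, the entries of Vmn1r63 and Vmn1r64 it makes 7 members meeting a recruited region. This was 3.45% of the family against 3.08% of all genes. With the shorter Vmn1r63 entry left out the count was 6 of 202, slightly under the share of all genes. The shares have unlike bases, since 183 of the 203 members already met a LAD in preadipocytes, against 5865 of the 22367 genes. Less of the family was therefore left to recruit.

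By state in the LAD lists, 6 members were in a LAD in adipocytes and not in preadipocytes, 2.96% of the family against 1.88% of all genes. These shares have unlike bases too, since 183 of the 203 members already met a preadipocyte LAD, against 5865 of the 22367 genes. The 6 members came from the few left outside, and the 420 genes from many. Among those outside in preadipocytes, the contrast is therefore wider than these shares show. Besides the 5 entries of Vmn1r58 to Vmn1r63 in the chromosome 7 array, the 6 members included Vmn1r233 (chr17:21130691-21131650). It belongs to the 13 members from Vmn1r224 (chr17:20556127-20557023) to Vmn1r237 (chr17:21450927-21451873), which had 88.2%, 90.9%, 90.8% and 95.1% of their span in LADs. In preadipocytes Vmn1r233 lay in a gap of 106 kb with Ppp2r1a, a phosphatase subunit gene, and Zfp160. In the other lists it lay in a LAD of its own, of 15.3 kb in adipocytes, 32.2 kb in the single knockdown and 16.7 kb in the double knockdown, at most 1.68 kb from a border. Every word of its exons is unique (100%). The adipocyte piece is close to the shortest LAD of that list, 15 kb, and is not among the deposited recruited regions. With only LADs of at least 100 kb kept, 10 members were in a LAD in adipocytes and not in preadipocytes, and Vmn1r233 was not among them. The 12 other members of the array met a LAD in all 4 lists.

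Against adipocytes, no member changed state in the single knockdown. In a LAD in adipocytes alone of the pair were 0 members, where 1.95% of all genes were. In the knockdown alone it was 0, where 6.13% of all genes were. These shares have unlike bases, since 187 of the 203 members met an adipocyte LAD, against 5209 of the 22367 genes. Few members could therefore gain a LAD, and most could lose one. Of the 5209 genes, 436 were outside in the single knockdown, against 0 of the 187 members. In the double knockdown 7 members were outside LADs that were inside in adipocytes, 3.45% against 2.10% of all genes. The other way it was 0, against 8.36%. Of those that met an adipocyte LAD, 7 of 187 members were outside here, against 470 of 5209 genes, a smaller share of the members. The 7 were Vmn1r2 and Vmn1r3 on chromosome 4, Vmn1r21 on chromosome 6, and Vmn1r116, Vmn1r117, Vmn1r171 and Vmn1r178 in the largest array of chromosome 7. Coverage of the body was 100% for each of them in the remaining lists and 0% here. Closing gaps under 50 kb left 1 of the 7, Vmn1r21. With only LADs of at least 100 kb kept, 18 members were outside in the double knockdown alone of the pair, 5 of the 7 among them, and 3 were the other way. The single knockdown then gave 3 and 4 in place of 0 and 0. These comparisons share the adipocyte list.

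The gaps that held these members in the double knockdown differed in size and in sequence. Vmn1r116 (chr7:21657275-21658198) and Vmn1r117 (chr7:21668217-21669140) shared a gap of 41.5 kb in which 3.20% of words were unique, and their exons had 7.17% and 0%. In adipocytes the LAD that held both was itself only 45.4 kb long. Vmn1r171 (chr7:24417007-24418587) lay in a gap of 28.1 kb with 68.8% unique words, and Vmn1r178 (chr7:24678548-24679462) in one of 21.1 kb with 56.4%. Their exons had 58.7% and 75.8%. The same list placed a gap of 5.06 kb inside Vmn1r139, which was otherwise covered (82.5% of the body).

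Vmn1r2 (chr4:3099177-3100187) and Vmn1r3 (chr4:3111495-3112505) lie near the start of the assembled sequence of chromosome 4. They shared a LAD of 466 kb in the preadipocyte list, of 349 kb in the adipocyte list and of 127 kb in the single knockdown list. In the double knockdown none of the 13.3 kb from the start of the one to the end of the other was in a LAD, but the break was short. The distance to the nearest border, negative for a gene outside LADs, was -1.16 kb for Vmn1r2 and -1.18 kb for Vmn1r3, with a LAD on either side of the pair. Their exons had 16.3% and 9.80% of unique words, and Vmn1r3 was 98.9% identical to Vmn1r79, which met a LAD in all 4 lists. The part of this likeness in the lost overlap was not tested.

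Of the 3 members outside clusters, Vmn1r1 (chr1:184087275-184088450) was in no LAD of any list. Its distance to the nearest border, negative as above, was -7.91 kb in preadipocytes and -4022.7 kb in adipocytes. In the single and double knockdowns it was -1.01 kb and -321 kb. Its nearest relative among the members, Vmn1r48, was 67.4% identical, and 98.5% of its words are unique. Vmn1r90 (chr7:15116003-15208415) lay within a LAD in each list, of 1897 kb, 1845 kb, 1692 kb and 638 kb in the order used above. Vmn1r238 (chr18:3122455-3123465) lay within LADs of 209 kb, 71.4 kb, 55.9 kb and 223 kb. Like Vmn1r2 and Vmn1r3 it is 1011 bp long and near the start of the assembled sequence of its chromosome, with 17.6% of its words unique.

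The LADs that held the members differed in length between the lists. In the order used above, the median length of a LAD with a member was 276, 636, 406 and 255 kb. Counted per member, the LAD around the median member was 805, 903, 551 and 445 kb long, and the longest LAD with a member 3028, 3075, 2935 and 921 kb. The median distance to the nearest border, over members wholly inside a LAD, was 163, 182, 138 and 75.8 kb. All protein-coding genes wholly inside LADs gave 129, 177, 93.7 and 73.0 kb, and so moved in the same order of lists. Members within 20 kb of a border numbered 12 of 180, 16 of 186, 19 of 185 and 30 of 178, or 6.67%, 8.60%, 10.3% and 16.9%, where all genes gave 14.7%, 10.7%, 19.6% and 21.9%.

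The gaps between LADs inside the clusters were more numerous in the knockdown lists. Leaving out the Vmn1r40 to Vmn1r54 array, there were 17 gaps in preadipocytes, 14 in adipocytes, 25 in the single knockdown and 38 in the double knockdown, with medians of 50, 24.3, 8.39 and 15.8 kb. Gaps that held all or part of a Vmn1r gene numbered 9, 1, 2 and 8. The 1 in adipocytes was the run of unknown bases within Vmn1r112, and it is counted in each of the other lists too.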

How the data were processed

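Genomic DNA from 8 libraries was enriched for Dam methylation by the authors, sequenced and mapped to mm9. Per the labels the processing notes name BWA and limma, without their roles. For every DpnI fragment the authors computed log2(LaminB1-Dam/Dam) and segmented the values with DNAcopy to call LADs. The deposited lists used here hold positions only, so depth and ratios were not examined and no interval is given. The rule for released and recruited regions was not given in full in the sources used here. Lists were tied to conditions by the abbreviations they carry, and 0 columns of per-sample values were left unused. Coordinates of LADs and regions are as deposited.

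Overlaps with GENCODE vM1 genes were computed in Python 3.11.15 with numpy 2.4.6 and pandas 2.3.3, after tests on simulated intervals. Words of 32 bases were counted in the NCBIM37 genome with numba 0.67.0, at every base of exons and every 4 bases of clusters. Member exons were aligned with blastn 2.17.0, and figures were drawn with matplotlib 3.10.9. Clusters join members up to 1 Mb apart. A gap is any stretch of a cluster outside LADs. Genes were named when they met a released or recruited region, changed LAD state between adipocytes and a knockdown, began or ended a cluster of 5 or more, lay outside LADs throughout (up to 10 by position) or stood alone; Vmn1r42, Vmn1r65, Vmn1r79, Vmn1r95, Vmn1r139, Vmn1r184, Vmn1r185, Vmn1r233 and the remaining genes outside LADs were named after their values were seen. The members, the lists and the pathway genes were chosen with earlier results of these data known. Alternatives changed the overlap, the LAD length, the closing of gaps, the gene set and the cluster distance. The 2 restrictions by unique words and by leaving out the largest array, and the one that left out the shorter Vmn1r63 entry, were chosen after seeing the data.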

Additional observations from a re-analysis of the deposited data

How the results depend on the processing

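With 1 profile per condition, no count here has an error between cultures, and small counts rest on single borders. Of 100 alternatives, 83 stayed within the limit set and 17 did not. The limit was 1.5 times the value reported or, for the share of members in LADs, its 95% Wilson interval over genes. That interval treats genes as independent, which members sharing LADs and arrays are not, so it is a yardstick and not an error. Many of the 83 had little room to move. Shares of cluster length began at 86.0% to 90.0% and counts of members meeting a LAD at 180 to 187, so neither could rise 1.5 times. Keeping only LADs of at least 100 kb gave 5 members in preadipocytes and not adipocytes, 10 the other way, 3 in adipocytes and not the Tmem120a knockdown, 4 the other way, 18 in adipocytes and not the Tmem120a/b knockdown, 3 the other way, and 19 preadipocyte LADs meeting the clusters. Of the original members 0 of 2, 5 of 6 and 5 of 7 were among the 5, the 10 and the 18. Closing gaps under 50 kb left 1 member lost in the Tmem120a/b knockdown, and 15 LADs meeting the clusters in adipocytes and in each knockdown. Requiring 50% of the body, or the transcription start, in a LAD gave 1 member in preadipocytes alone of the pair with adipocytes and 1 (Vmn1r65) in adipocytes and not the Tmem120a knockdown. Members meeting a released region became 2 with regions cut directly from the LAD lists and 2 with pseudogenes included. The counts of members meeting a LAD stayed within 1.5 times under the alternatives run, a wide limit for counts this near 203; with LADs of at least 100 kb the Tmem120a/b knockdown gave 166 in place of 180. No paired analysis was possible because each condition has a single profile and no result comes from a test.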
